A study of Mus musculus with 48 samples.

Results

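The transcript levels of 68 genes for heat shock proteins, their J-domain partners, the heat shock regulator Hsf1 and the cold-inducible RNA-binding proteins Cirbp and Rbm3 were read across mouse liver, hepatocyte preparations, in vitro spheroids, naïve iris and spheroid explants from the anterior chamber of the eye (ACE). The members were chosen by name from the 20702 genes of the deposited iris-corrected table: symbols that begin with Hspa, Hspb, Hspd, Hspe, Hsph, Dnaja, Dnajb or Dnajc and a number, without Hspa5, together with Hsp90aa1, Hsp90ab1, Hsp90b1, Hsph1, Hsf1, Cirbp and Rbm3. That table keeps genes with a mean of at least 1 TPM (a level scaled for gene length and depth) over its 13 columns. The members just inside this limit were Dnajb7 and Hspd1-ps3, each at 1.08 TPM, and the nearest genes outside it were Hspe1-ps5 at 0.906 and Hspe1-ps4 at 0.618 TPM. Of 83 counted genes whose symbol fits the rule, 15 were outside the table. The 68 fell by textbook role into 9 heat-inducible, 9 constitutive cytosolic, 9 mitochondrial, 10 endoplasmic reticulum (ER), 3 small heat shock and 2 cold-inducible genes, 1 regulator, 22 other J proteins and HSP70 relatives, and 3 pseudogenes.

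Bulk RNA was sequenced by Smart-seq3 from 16 samples: 3 livers, 3 hepatocyte preparations, 2 samples of in vitro spheroids, 3 naïve irises and 5 explants (numbered 1, 2, 4, 5 and 6) taken 2 months after transplantation (post-tx). Every group is given as wild-type albino C57BL/6N mice, and the labels name no drug. Hepatocytes were released from the liver by collagenase perfusion with warmed liquids and enriched. Spheroids were grown from such preparations and transplanted after 10 days of culture, and explants were dissected with the surrounding iris in cold buffer. The study's methods list dexamethasone in the plating medium, in which isolated cells were suspended, and in the later spheroid medium. The labels do not tie samples to animals, so p-values measure the spread between these samples only. Total counts per sample were 3523171 to 3871404 in livers, 2718518 to 3573075 in hepatocyte preparations, 3247327 to 3447643 in in vitro spheroids, 4596550 to 4881817 in irises and 5449589 to 6789648 in explants. Hepatocyte markers (7 genes, Alb among them) summed to 9966 to 10705 TPM in livers and 1341 to 1601 TPM in irises. Iris markers (Pax6 and 4 others) summed to 5.38 to 5.86 and 406 to 423 TPM, so the labelled tissues carried their own markers. The source of the transcripts of hepatocyte marker genes in the irises was not tested.

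Heat shock proteins hold unfolded proteins and help them fold. HSP70 proteins work in cycles driven by J-domain partners and released by exchange factors such as Hsph1, HSP90 finishes a set of client proteins, and Hspd1 with its lid Hspe1 forms the folding chamber of the mitochondrial matrix. Hsf1 binds heat shock elements, inverted repeats of GAA, in the promoters of heat-inducible genes, whereas Cirbp and Rbm3 are RNA-binding proteins best known for rising when cells are mildly cooled.

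RefSeq promoter windows of the GRCm38.p6 build, from 250 bases before to 50 after a start site, were at hand for 50 of the 68 members. They are shown for genes on which the comparisons turn. The complete heat shock element GAANNTTCNNGAA, searched on both strands, was in windows of Dnajb6, Hspd1, Hspe1 and Hsph1, and in 0.603% of the 32851 mouse windows. Hspd1 and Hspe1 are transcribed in opposite directions from 1 shared stretch, chr1:55088053-55088082, which is read below on the minus strand for Hspd1 and on the plus strand for Hspe1 and lies within an annotated exon of Hspd1. Capitals mark 2 overlapping matches of the element, which begin at base -144 from the Hspd1 start site and at base -89 from that of Hspe1.
Hspd1: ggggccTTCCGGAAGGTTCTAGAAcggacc
Hspe1: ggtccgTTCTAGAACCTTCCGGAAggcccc
Hspa1a and Hspa1b are near-identical copies whose windows differed at 4 of 300 bases. The stretch from base -150 to -51, chr17:34972207-34972306 for Hspa1a and chr17:34959289-34959388 for Hspa1b, both minus strand, was the same in both. Capitals mark the inner pair GAANNTTC, a shorter form that overlaps the complete element and was in 7.86% of all windows.
Hspa1a: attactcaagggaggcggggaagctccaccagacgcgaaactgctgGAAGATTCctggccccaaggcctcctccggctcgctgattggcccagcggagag
The ER stress response element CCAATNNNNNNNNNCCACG (0.119% of windows, both strands) is in capitals for the ER members Dnajc3, chr14:118937806-118937865 on the plus strand, and Hsp90b1, chr10:86705618-86705677 on the minus strand.
Dnajc3: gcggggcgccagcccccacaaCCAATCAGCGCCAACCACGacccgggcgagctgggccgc
Hsp90b1: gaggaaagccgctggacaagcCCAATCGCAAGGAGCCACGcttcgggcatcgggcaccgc
For Cirbp, chr10:80167589-80167648 on the plus strand, capitals mark the octamer TCCCCGCC, known as a mild cold response sequence, which was in 5.38% of all windows and in those of 11 members.
Cirbp: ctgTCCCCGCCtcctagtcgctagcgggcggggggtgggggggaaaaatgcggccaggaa
A match describes letters only and no binding was measured.

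On the TPM scale, which allows genes to be set side by side, Hsp90ab1, the constitutive HSP90, had the highest mean level of the members in liver, at 803 ± 8.03 TPM (SD, n = 3). It was followed by Hsp90b1, the HSP90 of the ER, at 611 ± 63.1 TPM and Hspa9, the mitochondrial HSP70, at 496 ± 65.0 TPM, with Hspb8 next at 438 ± 17.6 TPM. Hspa9 and Hspb8 differed by less than the SD of Hspa9. In iris the first member was again Hsp90ab1 at 705 ± 24.1 TPM, followed by Hspb8, a small heat shock protein, at 515 ± 19.6 TPM and Hsp90b1 at 462 ± 53.0 TPM.

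Differences between groups were tested on counts with edgeR's quasi-likelihood test, 1 fit of all 5 groups, at a Benjamini-Hochberg adjusted p under 0.05 over 17064 genes. The 3 pseudogenes, Dnajb3 and Dnajb7 were too low to test, which left 63 members. Levels are given as CPM, counts scaled to the size of the library and by the trimmed mean of M-values (TMM), and differences as log2 fold changes ± SE. In bulk RNA, fewer cells of a type and less RNA per cell cannot be told apart.

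What isolation of the hepatocytes went with was read from the 3 hepatocyte preparations against the 3 livers. Dnajb1, the J protein that is the classic partner of inducible HSP70, rose 1.68-fold, and the cold-inducible Rbm3 fell to 0.594 of its liver level. Dnajb1 was at 86.1, 97.6 and 105.6 CPM in the livers and at 165, 189 and 132 CPM in the preparations. The groups did not overlap, and the log2 fold change was 0.75 ± 0.13 (edgeR, adjusted p = 0.00297). Rbm3 was at 131, 119 and 121 CPM in the livers and at 71.3, 71.6 and 77.7 CPM in the preparations. All 3 preparations were below all 3 livers, by -0.75 ± 0.14 on the log2 scale (edgeR, adjusted p = 0.00376). Both calls held whichever sample was left out and with scaling by library size alone, but that of Rbm3 was lost with 1 of the 3 technical libraries (a) of each sample in place of their sum (-0.69, edgeR, adjusted p = 0.051). That of Dnajb1 was lost in a fit that paired same-numbered samples (a replicate block, given in the last section).

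Of the 63 members tested, 4 were called, against 13.2% of all genes, and 2 were higher (5.52% of all genes) and 2 lower (7.67%). Their median log2 fold change was 0.13 and that of all genes 0. The other calls were Hspd1, 0.33 ± 0.10 higher (edgeR, adjusted p = 0.036), and Dnajc27, a small GTPase with a J domain, -1.58 ± 0.50 (edgeR, adjusted p = 0.0491). Hspd1 was at 422, 445 and 446 CPM in livers and 559, 547 and 542 CPM in preparations, and its call was lost without any one of the 6 samples (adjusted p 0.0538 to 0.113) and with library size alone. Dnajc27 rested on 3, 4 and 0 counts in the preparations against 10, 9 and 9 in the livers, and its call was also lost without any one of the 6 samples (adjusted p 0.0502 to 0.196). Scaling by library size alone moved the median of all genes to -0.16 and gave 1 higher and 3 lower members, and the share of higher among all calls went from 41.9% to 14.9%.

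The other heat-inducible members were not called. Hspa1a, an inducible HSP70, was at 0.929, 3.4 and 2.22 CPM in livers and 4.83, 5.05 and 4.01 CPM in preparations, so that the groups did not overlap. Its log2 fold change was 1.10 ± 0.38 (edgeR, adjusted p = 0.0689, and 0.0284 without liver 2). These levels rest on 3 to 13 counts per sample. Hspa1b was at 2.48, 8.84 and 6.03 CPM in livers and 12.3, 8.42 and 5.51 CPM in preparations, which overlap, and reads of the 2 copies may be split or lost between them. Hsph1, the exchange factor of HSP70, was at 81.8, 112 and 124 CPM and then 195, 158 and 123 CPM, with a log2 difference of 0.59 ± 0.19 (edgeR, adjusted p = 0.0542). It was called without preparation 3 (adjusted p = 0.0381) or liver 3 (adjusted p = 0.0401). Dnaja1, a J partner of cytosolic HSP70, was at 245, 301.5 and 311.5 CPM in livers and 362, 374 and 320.2 CPM in preparations. Its groups did not overlap, but the difference missed the threshold (0.30, 95% interval 0.05 to 0.55, edgeR, adjusted p = 0.131). The regulator Hsf1 was at 28.5, 28.9 and 35.5 CPM in livers and 40.8, 42.9 and 35.6 CPM in preparations. Liver 3 and preparation 3 were nearly level, and Hsf1 was not called (0.36, 95% interval 0.03 to 0.69, edgeR, adjusted p = 0.163). On the TPM scale the groups overlapped for Dnaja1 (66.6 to 81.8 TPM in preparations, 63.8 to 75.0 in livers) and Hsf1 (31.6 to 40.2 and 29.7 to 36.6 TPM). Hspb1, an actin-associated small heat shock protein, was at 21.7, 26.9 and 27.6 CPM in livers and 46.8, 33.7 and 27.6 CPM in preparations (log2 difference 0.51). Hsp90aa1, the inducible HSP90, was at 107.8, 174 and 126.2 CPM and then 160, 126.3 and 149 CPM (0.09). For Dnajb4, a J protein of the cytosol, livers were at 67.5, 79.2 and 71.7 CPM and preparations at 78.3, 71.2 and 83.7 CPM (0.09). Groups overlapped for these 3, and for Hspa4l, a relative of Hsph1, at 50.2, 63.2 and 52.0 CPM in livers and 87.3, 42.1 and 58.1 CPM in preparations (0.19). Cirbp was at 54.5, 58.1 and 51.1 CPM in livers and at 21.9, 41.7 and 62.1 CPM in preparations. The preparations spread on both sides of the livers (log2 fold change -0.40 ± 0.28, edgeR, adjusted p = 0.358).

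**Figure D1:**
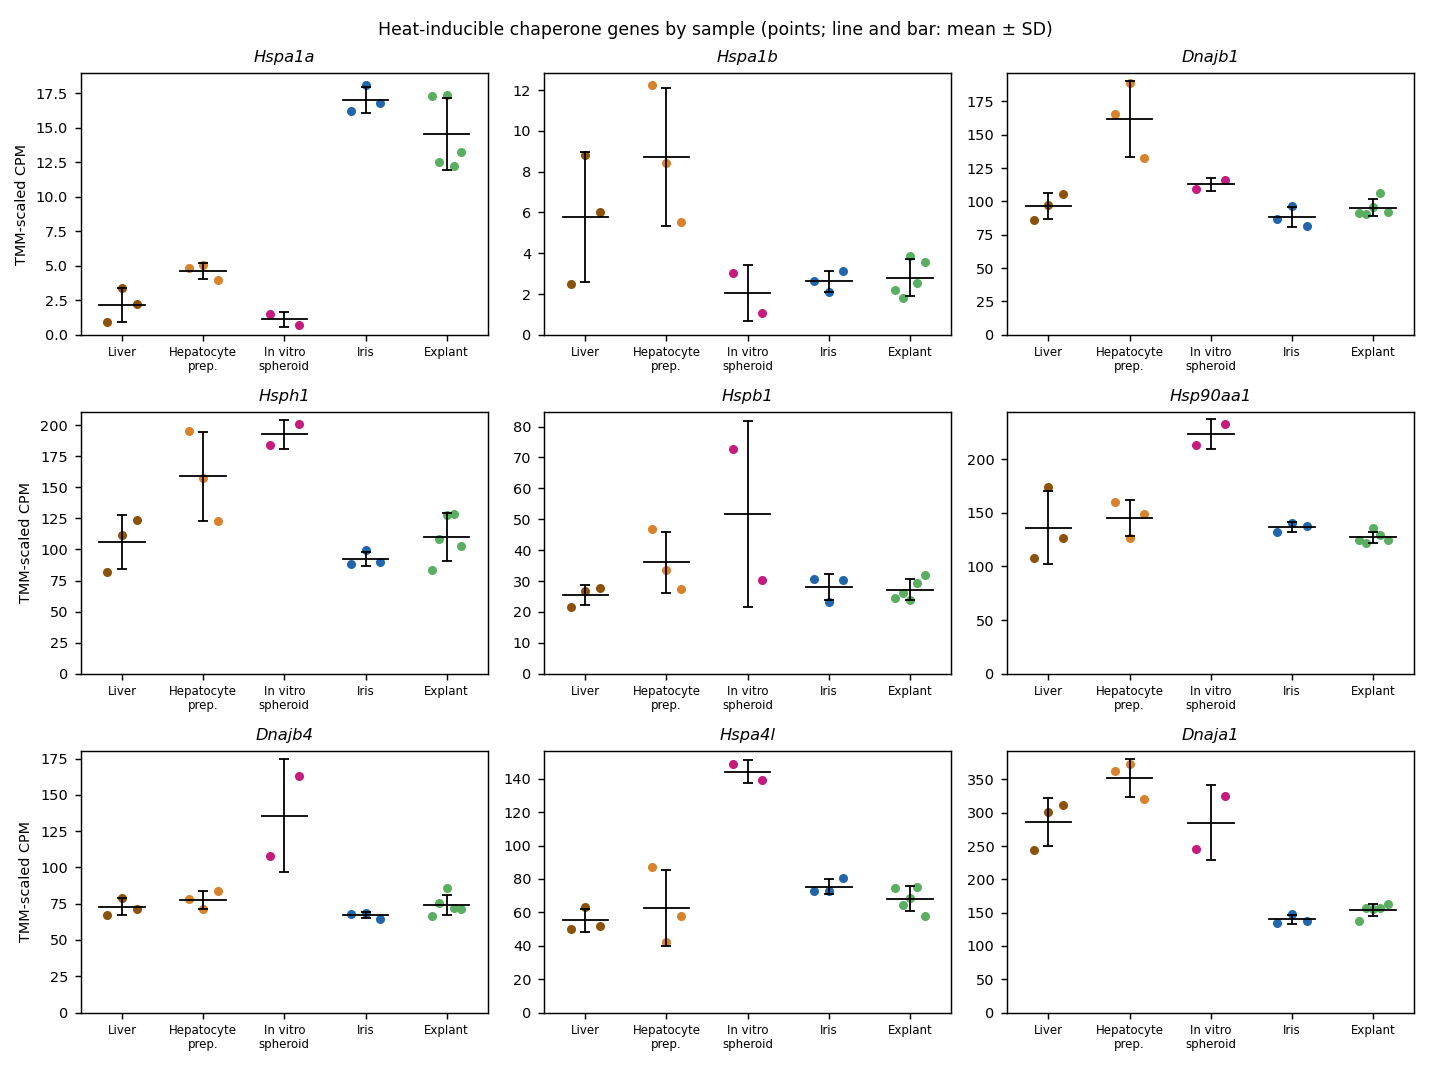
TMM-scaled CPM of the 9 heat-inducible members (vertical axes, from 0) in the samples of the 5 groups (horizontal axes), with the mean as a line and the SD as a bar. Dnajb1 is highest in the hepatocyte preparations (132 to 189 CPM), Hspa4l in the in vitro spheroids (139 and 149 CPM) and Hspa1a in irises and explants (12.3 to 18.1 CPM).

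Among 22 co-chaperones read beside the members, 2 rose and 0 fell in the preparations (edgeR): Stip1, the adaptor between HSP70 and HSP90 (0.44 ± 0.13, adjusted p = 0.0415), and Chordc1, an HSP90 partner (0.65 ± 0.18, adjusted p = 0.0321). The call of Stip1 was lost without preparation 1 or 3 or liver 1 or 2 (adjusted p 0.116 to 0.138), and that of Chordc1 without preparation 1 or 2 or liver 1 or 2 (0.0542 to 0.124). All 8 immediate early genes, such as Fos and Egr1, rose as well, with a median log2 fold change of 3.70, and their summed level went from 115 to 166 TPM in livers to 842 to 2118 TPM in preparations. Among markers of other liver cells, 4 of 4 cholangiocyte, 4 of 4 stellate cell, 3 of 3 endothelial, 3 of 5 macrophage and 1 of 4 sinusoidal endothelial genes were called lower and none higher. Of the 5 Kupffer cell markers 0 were called by edgeR, DESeq2 or limma-voom (0 with an unadjusted p under 0.05 by edgeR), and their sum was 204 to 371 TPM in livers and 101 to 200 TPM in preparations. Summed cholangiocyte markers were at 19.1 to 46.5 TPM in livers and 1.54 to 3.75 TPM in preparations. The part of these shifts in the levels of Dnajb1 and Rbm3 was not tested.

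Spheroid culture was read from the 2 in vitro spheroid samples against the hepatocyte preparations. Here Rbm3 rose 1.79-fold, Hspa4l rose 2.3-fold, and Dnajc10, a disulfide reductase of the ER, rose 3.39-fold, while the mitochondrial chaperonin Hspd1 fell to 0.612 of its level in the preparations. Of the 63 members, 13 were higher and 10 lower, against 28.8% of all genes called, 14.6% higher and 14.2% lower. The member median was -0.07 and that of all genes 0. Scaling by library size alone moved the all-gene median to 0.25, the share of higher among all calls from 50.7% to 73.3%, and the members to 17 higher and 4 lower. The 13 higher members were among those 17, and 6 of the 10 lower ones lost their call: Dnajb1, Dnajc15, Dnajc19, Dnajc30, Hspa9 and Hspe1. Leaving out 1 sample at a time, 8 of the 23 calls held throughout, for Dnajb4, Dnajc10, Dnajc18, Dnajc8, Dnajc9, Hspa4l, Hspd1 and Rbm3.

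Rbm3 was at 107 and 157 CPM in spheroids against 71.3 to 77.7 CPM in preparations. Both spheroids were above all preparations (log2 fold change 0.84 ± 0.15, edgeR, adjusted p = 0.000652), although they differed from each other by more than any pair of livers did. Cirbp did not follow, at 32.4 and 42.7 CPM, within the range of the preparations (log2 fold change -0.14, 95% interval -0.76 to 0.48).

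Of the 9 heat-inducible members, 3 rose and 3 fell. Hspa4l was at 149 and 139 CPM in spheroids and 87.3, 42.1 and 58.1 CPM in preparations, 1.20 ± 0.21 higher on the log2 scale (edgeR, adjusted p = 0.000555). Dnajb4 was at 108 and 163 CPM against 78.3, 71.2 and 83.7 CPM, 0.80 ± 0.16 higher (edgeR, adjusted p = 0.00121). Hsp90aa1 was at 213 and 233 CPM against 160, 126 and 149 CPM, 0.62 ± 0.16 higher (edgeR, adjusted p = 0.00838, but 0.0594 without spheroid 2). These 3 lay above every preparation. In the other direction, Hspa1a was at 1.51 and 0.724 CPM against 4.01 to 5.05 CPM, and Hspa1b at 3.03 and 1.09 CPM against 5.51 to 12.3 CPM. Their log2 fold changes were -2.0 ± 0.49 and -2.05 ± 0.59 (edgeR, adjusted p = 0.00607 and 0.016), from 2 to 10 counts per spheroid sample. Without spheroid 2 both calls were lost (adjusted p = 0.0598 for Hspa1a and 0.14 for Hspa1b), and that of Hspa1b also without preparation 1 (adjusted p = 0.0594). Dnajb1 returned to 110 and 116 CPM (-0.52 ± 0.15, edgeR, adjusted p = 0.0141), a call lost without preparation 2 (adjusted p = 0.0588), spheroid 1 (0.128) or spheroid 2 (0.0505). Hspb1, Hsph1 and Dnaja1 were not called. Hspb1 was at 72.9 and 30.4 CPM in spheroids and 27.6 to 46.8 CPM in preparations, Hsph1 at 184 and 201 CPM against 123 to 195 CPM, and Dnaja1 at 245 and 325 CPM against 320.2 to 374 CPM. The groups overlapped for each, and without spheroid 2 Hspb1 was called higher (1.01, edgeR, adjusted p = 0.0104) and Dnaja1 lower (-0.52, adjusted p = 0.0375). Hsf1, at 57.2 and 35.9 CPM against 35.6 to 42.9 CPM, overlapped as well (0.23, 95% interval -0.13 to 0.59).

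In the ER group, Dnajc10 was at 183 and 250 CPM in spheroids against 50.9, 59.8 and 81.7 CPM in preparations (1.76 ± 0.19, edgeR, adjusted p = 1.23e-05). Hspa13, an HSP70 relative of the ER, was 0.76 ± 0.20 higher (edgeR, adjusted p = 0.00992), at 104 and 168 CPM against 66.5, 77.1 and 97.7 CPM, and lost its call without spheroid 2 (0.38, adjusted p = 0.239). Dnajc25 was 0.98 lower, at 10.3 and 11.2 CPM against 20.2 to 23 CPM (log2 fold change -0.98 ± 0.23, edgeR, adjusted p = 0.00461, but 0.0516 without spheroid 1). Of 9 other ER stress and folding partners, Hspa5 among them, 1 was higher and 1 lower. Outside these groups, Dnajc18, a J protein with a membrane anchor, was at 56.0 and 60.1 CPM against 26.1 to 32.1 CPM (1.03 ± 0.18, edgeR, adjusted p = 0.000543). Dnajc27 was at 3.93 and 2.17 CPM against 0 to 1.68 CPM (1.63 ± 0.54, edgeR, adjusted p = 0.0338), and lost its call without preparation 1 (adjusted p = 0.0654), preparation 3 (0.143) or spheroid 1 (0.329).

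Of the 9 mitochondrial members, 6 were lower and 0 higher (edgeR; all 6 with an unadjusted p under 0.05 were lower), and Dnaja3, Dnajc11 and Dnajc28 were not called. Hspd1 was at 317 and 355 CPM in spheroids against 542 to 559 CPM in preparations, and the groups stood clear of each other (-0.71 ± 0.11, edgeR, adjusted p = 0.000198). Its partner Hspe1, on the other side of the shared promoter, was at 126 and 112 CPM against 213, 172 and 201 CPM (-0.71 ± 0.20, edgeR, adjusted p = 0.0138, lost without spheroid 1 at 0.0589 and without spheroid 2 at 0.104). Hspa9, Dnajc15, Dnajc19 and Dnajc30 differed by -0.33 to -0.59. The count of 6 was 3 without preparation 1, 4 without preparation 2 or 3, 1 without spheroid 1, 2 without spheroid 2 and 1 (Hspd1) with library size alone. In contrast, 7 of the 8 subunits of TRiC, the cytosolic chaperonin that folds actin and tubulin, were higher (median log2 fold change 0.45), and this count was 2 without spheroid 2. Among co-chaperones 6 rose, such as Fkbp5 at 2.38 ± 0.37 (edgeR, adjusted p = 0.000188) and Chordc1 at 0.82 ± 0.20 (adjusted p = 0.00585, but 0.0697 without spheroid 2), and 4 fell, among them the mitochondrial Trap1, Grpel1 and Clpb. The part of the dexamethasone in the culture media in these co-chaperone values was not tested. Immediate early genes were called lower for 5 of 8. Summed Kupffer cell markers stood at 469 and 511 TPM in spheroids against 101 to 200 TPM in preparations, where 1 of 5 (Cd5l) was called higher. Macrophage markers were called higher for 2 of 5 (380.2 and 478 against 102 to 173 TPM summed), stellate cell markers for 2 of 4 (278 and 304 against 109.5 to 159 TPM), and sinusoidal endothelial markers lower for 2 of 4. Their part in these values was not tested.

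**Figure D2:**
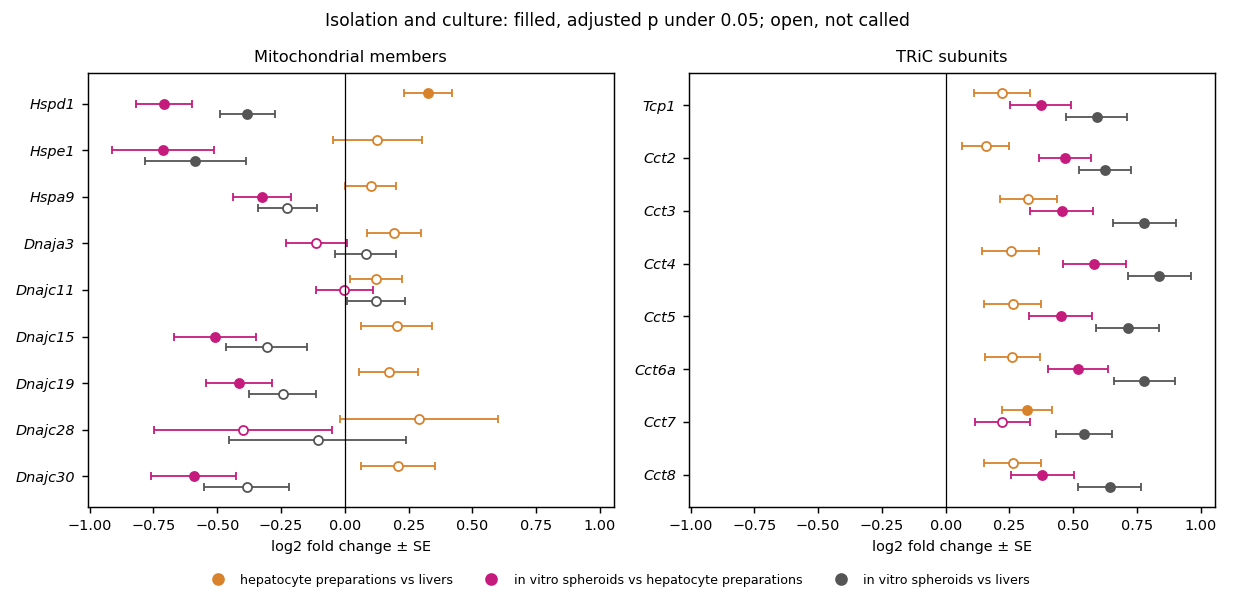
Log2 fold change ± SE (horizontal axes) of the 9 mitochondrial members and the 8 TRiC subunits in 3 comparisons of liver, hepatocyte preparations and in vitro spheroids, filled where the adjusted p is under 0.05. Of the mitochondrial members 6 are filled below 0 for spheroids against preparations, and all 8 TRiC subunits are filled above 0 for spheroids against livers.

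Against the livers themselves, a comparison that shares its samples with the 2 above, the spheroids had 16 members higher and 5 lower, and 36.5% of all genes were called (17.9% higher, 18.6% lower). The medians were 0.08 for members and -0.08 for all genes. With library size alone 19 were higher and 3 lower, the 16 included, the calls of Hspa12a and Hspe1 were lost, and the share of higher among all calls went from 49.0% to 57.6%. Of the 21 calls, 11 held whichever sample was left out. Heat-inducible genes were higher for 5 of 9 and lower for 0 (edgeR; 6 of 9 had an unadjusted p under 0.05). Those 5 were Hspa4l at 1.39 ± 0.21 (adjusted p = 0.000144), Hspb1 at 1.03 ± 0.29 (0.0117), Dnajb4 at 0.90 ± 0.15 (0.00041), Hsph1 at 0.86 ± 0.21 (0.00462) and Hsp90aa1 at 0.71 ± 0.16 (0.00265), all by edgeR. Hspb1 was at 72.9 and 30.4 CPM in spheroids against 21.7, 26.9 and 27.6 CPM in livers, and its difference rested on spheroid 1, without which it was 0.32 (adjusted p = 0.433). Hsph1 was at 184 and 201 CPM in spheroids and 81.8 to 124 CPM in livers, with no overlap. Hsf1 was at 57.2 and 35.9 CPM against 28.5, 28.9 and 35.5 CPM (0.59 ± 0.18, edgeR, adjusted p = 0.0185), and lost its call without spheroid 1 (adjusted p = 0.329), liver 1 (0.0543) or liver 2 (0.055).

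Besides Hspa4l, the highest of the 16 were Dnajc10 at 1.69 ± 0.19 (183 and 250 CPM against 59.0 to 82.4 CPM), Dnajc18 at 1.28 ± 0.18 (56.0 and 60.1 CPM against 17.7 to 30.1 CPM) and Hspa13 at 1.18 ± 0.20 (104 and 168 CPM against 47.9 to 68.8 CPM), with edgeR adjusted p of 1.36e-05, 7.7e-05 and 0.000369. Each was higher in both spheroids than in any liver. Among the lower members, Dnajc25 was at 10.3 and 11.2 CPM against 21.9 to 30.9 CPM (-1.29 ± 0.23, edgeR, adjusted p = 0.000489). Dnajb13, a J protein known from sperm flagella, had 2 counts in both spheroids together and 19 in the livers, a ratio of 6.18 in favour of the livers with a 95% counting interval of 1.49 to 54.7 (Clopper-Pearson on the split of the counts). Its adjusted p of 0.0254 (edgeR) was lost without spheroid 1 (0.145), spheroid 2 (0.0972) or liver 2 (0.0778). Hspa12a was at 0.605 and 1.45 CPM against 2.38 to 4.65 CPM and lost its call (edgeR, adjusted p = 0.0403) without either spheroid (0.293 and 0.0579), liver 1 (0.122) or liver 3 (0.058). Hspe1 was -0.59 ± 0.20 (edgeR, adjusted p = 0.0302, lost without spheroid 1 at 0.0966, spheroid 2 at 0.171 or liver 2 at 0.114), and Hspd1 -0.38 ± 0.11 (edgeR, adjusted p = 0.0118, lost without spheroid 1 at 0.179). Rbm3, at 107 and 157 CPM, stood on both sides of the livers (0.09, 95% interval -0.20 to 0.38). All 8 TRiC subunits and 9 of the 22 co-chaperones were higher and 2 of the latter lower, and the TRiC count stayed at 8 whichever sample was left out. Of the immediate early genes, 7 of 8 were above liver.

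Iris was compared with liver because both tissues give RNA to an explant. Both cold-inducible genes were higher in iris, and all 9 mitochondrial members were lower. Cirbp was at 148, 119 and 136 CPM in irises, clear of the 51.1 to 58.1 CPM of livers (1.30 ± 0.26, edgeR, adjusted p = 0.000308). Rbm3 was at 190, 186 and 186 CPM, clear of the 119 to 131 CPM of livers (0.61 ± 0.13, edgeR, adjusted p = 0.000692). Both kept their direction and call with library size alone and in every fit with 1 sample left out.

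**Figure D3:**
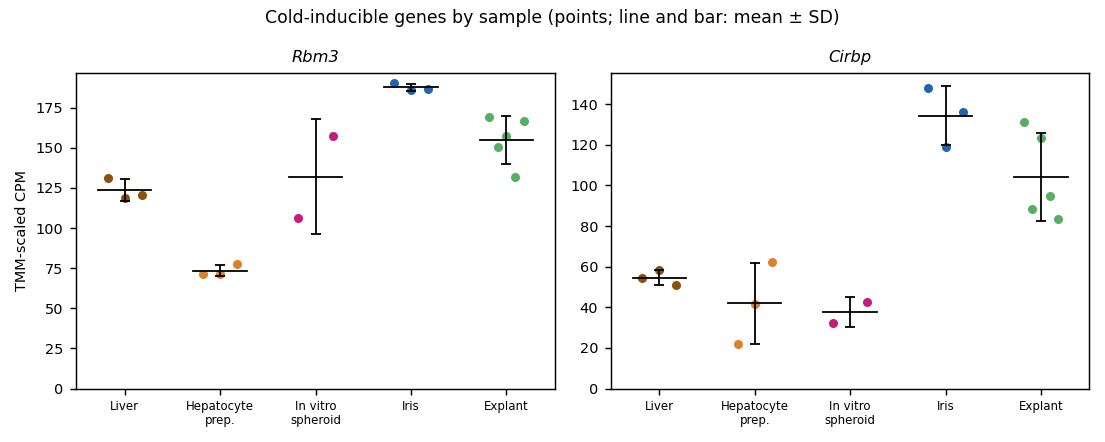
TMM-scaled CPM of Rbm3 and Cirbp (vertical axes, from 0) in each sample of the 5 groups, with the mean as a line and the SD as a bar. The 3 irises are the highest group for both genes, and the 3 hepatocyte preparations are the lowest for Rbm3 (71.3 to 77.7 CPM).

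Over the 63 members, 24 were higher and 25 lower in iris, where 71.1% of all genes were called, 40.8% higher and 30.3% lower. The members' median was -0.01 and that of all genes 0.25. With library size alone the all-gene median was 0.82, the share of higher among all calls went from 57.4% to 74.7%, and members were 33 higher and 17 lower. The 24 higher calls were among the 33, 8 lower calls were lost, and of those Hspa4 and Hspb8 changed sign. Leaving out 1 sample at a time, 44 of the 49 held.

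Dnajc22, a membrane J protein, was at 249, 283 and 289 CPM in livers and at 0.984, 1.41 and 1.81 CPM in irises (-7.58 ± 0.55, edgeR, adjusted p = 6.38e-09). It was the member with the lowest value in iris relative to liver. Dnajc25 was at 26, 30.9 and 21.9 CPM in livers and 3.77, 4.57 and 4.45 CPM in irises (-2.61 ± 0.21, edgeR, adjusted p = 1.64e-08). Dnajb11, an ER partner of Hspa5, was at 79.6, 108 and 93.3 CPM and 29.9, 35.3 and 27.2 CPM (-1.60 ± 0.19, edgeR, adjusted p = 1.49e-06), and Dnajc3 and Hsp90b1, whose promoter stretches are shown above, were -1.58 ± 0.16 and -1.19 ± 0.16. In the ER group as a whole 5 of 10 were lower and 1, Dnajc10, was higher, and of the 9 ER partners 7 were lower, with Hspa5 at -1.31 ± 0.21 (edgeR, adjusted p = 4.22e-05).

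Hspd1 was at 422, 445 and 446 CPM in livers and 143, 148 and 144 CPM in irises (-1.59 ± 0.10, edgeR, adjusted p = 1.14e-09). The 9 mitochondrial members ranged from that value to -0.74, and 6 of 9 remained lower with library size alone. The groups of Dnajc28 overlapped. TRiC subunits were lower for 8 of 8, which became 2 lower and 1 higher with library size alone. On the higher side, Dnajc6, the auxilin of clathrin uncoating, had 298 counts in irises against 3 in livers, a ratio of 51.9 with a 95% counting interval of 17.6 to 253. Hspb2, a small heat shock protein of muscle, was at 31.5, 26 and 29.8 CPM in irises and 1.86, 0.680 and 0.634 CPM in livers (4.74 ± 0.42, edgeR, adjusted p = 6.16e-08). Dnajc27 was at 37.4, 32 and 42.1 CPM against 2.86 to 3.10 CPM (3.62 ± 0.29, edgeR, adjusted p = 2.32e-08).

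Hspa1a was at 16.2, 18.1 and 16.8 CPM in irises against 0.929 to 3.4 CPM in livers (2.97 ± 0.33, edgeR, adjusted p = 7.77e-07). Its copy Hspa1b went the other way, at 2.62, 2.11 and 3.13 CPM against 2.48 to 8.84 CPM, with groups that overlap (-1.12 ± 0.47, edgeR, adjusted p = 0.0434). That call was lost with library size alone and without any iris or liver 2 or 3 (adjusted p 0.0567 to 0.241). The 2 genes share their sequence, and 19% of the exon bases of Hspa1a are shared with Gm20481 on the opposite strand, which unstranded counting adds to both. Dnaja1 was lower, at 135, 148 and 137.5 CPM in irises against 245, 301.5 and 311.5 CPM in livers (-1.02 ± 0.13, edgeR, adjusted p = 3.41e-06), with groups well apart and a call that held with library size alone and whichever sample was left out. Hspa4l was higher, at 72.8, 72.9 and 80.6 CPM against 50.2, 63.2 and 52.0 CPM (0.46 ± 0.19, edgeR, adjusted p = 0.0424), a call lost without any iris, liver 1 or liver 3 (adjusted p 0.06 to 0.122). Hsf1 was higher too, at 51, 39.5 and 49.8 CPM against 28.5, 28.9 and 35.5 CPM (0.60 ± 0.16, edgeR, adjusted p = 0.00347), and kept its call with library size alone and in every fit with 1 sample left out. The other 5 heat-inducible genes were not called and their groups overlapped. In irises Dnajb1 was at 86.9, 96.6 and 81.5 CPM (log2 difference -0.12, 95% interval -0.38 to 0.13), Hsph1 at 88.2, 99.2 and 89.5 CPM (-0.19, -0.57 to 0.18) and Dnajb4 at 67.9, 68.7 and 64.8 CPM (-0.11, -0.39 to 0.16). Hsp90aa1 was at 132, 140.6 and 138 CPM (0.01, -0.27 to 0.30) and Hspb1 at 30.7, 23.2 and 30.2 CPM (0.15, -0.37 to 0.67). With library size alone 6 of the 9 heat-inducible members were higher and 1 lower, in place of 2 and 2. The lens small heat shock proteins Cryaa and Cryab were 6.82 ± 1.24 and 3.60 ± 0.12 higher in iris (edgeR, adjusted p = 0.000141 and 2.13e-12). Smooth muscle markers rose for 5 of 5 genes and summed to 3474 to 3654 TPM in irises against 145 to 161 TPM in livers.

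**Figure D4:**
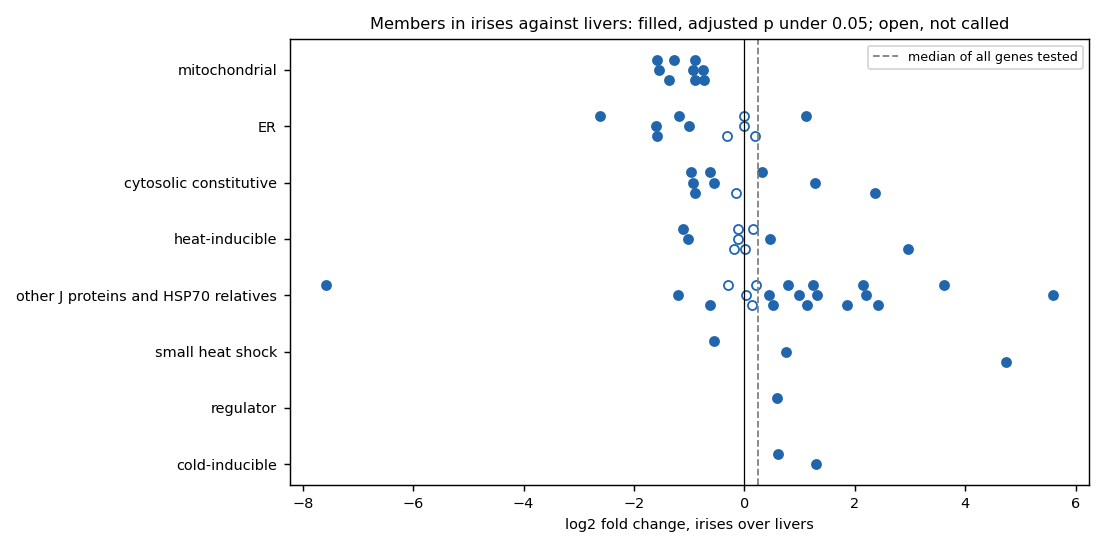
Log2 fold change of irises over livers (horizontal axis) for the 63 members tested, 1 point a gene, in rows by class, filled where the adjusted p is under 0.05. The 9 mitochondrial members lie between -1.59 and -0.74, both cold-inducible genes lie above 0, and the dashed line is the median of all genes at 0.25.

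Explants were compared with naïve irises, as in the study. Only Dnajc22 was called among the 63 members, where 8.26% of all genes were called, 7.33% higher and 0.926% lower. Dnajc22 was at 13.3, 39.6, 20.6, 38.6 and 67.2 CPM in explants 1, 2, 4, 5 and 6 and 0.984 to 1.81 CPM in irises, 4.65 ± 0.52 higher on the log2 scale (edgeR, adjusted p = 1.54e-05). All explants lay above all irises, and all were below the livers. The hepatocyte markers were called higher for 7 of 7 genes in the same comparison. Macrophage markers were higher for 4 of 5 genes and immediate early genes for 3 of 8, with 0 lower in either list. Summed immediate early genes were at 299 to 590 TPM in explants and 125 to 185 TPM in irises. Smooth muscle markers were lower for 2 of 5 and higher for 0. The part of these genes in the members' values was not tested. In this fit 0 members were called lower, and an unadjusted p under 0.05 was reached by 6 members, Dnajc22 included. Other fits called a few lower: Dnajc9, a nuclear J protein, with DESeq2 (-0.34, adjusted p = 0.0173), limma-voom (-0.33, 0.0308), and edgeR with RLE factors (-0.34, 0.0499), library size alone (-0.38, 0.0394) or at least 10 counts in every sample (-0.34, 0.0396). Hspb2 was lower with DESeq2 (-0.54, adjusted p = 0.0241), limma-voom (-0.53, 0.0489) and edgeR on only these groups (-0.49, 0.0371), and Hspb6 with the last alone (-0.34, 0.0482). Dnajc2 was higher with DESeq2 (0.45, adjusted p = 0.03), limma-voom (0.45, 0.0481), and edgeR with at least 10 counts (0.45, 0.047) or without explant 2 (0.52, 0.0464). The edgeR fit of only these groups called Dnajc2 (0.49, 0.0271), Dnajc14 (0.35, 0.038) and Dnajc3 (0.38, 0.0192) higher. Dnajc14 was also higher by edgeR with libraries a alone (0.41, 0.0265) and without explant 1 (0.37, 0.0326). The medians were 0.0024 for members and -0.02 for all genes.

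Rbm3 was at 169, 151, 158, 132 and 167 CPM in the explants and 186 to 190 CPM in the irises. All 5 explants lay below all 3 irises, at 0.826 of their level, but the difference missed the threshold over all genes (-0.28, 95% interval -0.50 to -0.05, edgeR, adjusted p = 0.185). Livers, at 119 to 131 CPM, lay below all explants. Cirbp was at 131, 88.5, 124, 94.6 and 83.5 CPM in explants and 119 to 148 CPM in irises (-0.37, 95% interval -0.79 to 0.06, edgeR, adjusted p = 0.378). For Cirbp, explants 1 and 4 fell within the range of the irises and the other 3 below it. Temperature was not among the measurements, and the part of a cooler eye in these levels cannot be told apart from that of the iris tissue itself.

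Heat-inducible members lay near iris. Dnajb1 was at 91.7, 90.3, 96.1, 106.7 and 92.5 CPM against 81.5 to 96.6 CPM (0.11, 95% interval -0.11 to 0.34), Hsph1 at 83.1, 108, 128, 129 and 102 CPM against 88.2 to 99.2 CPM (0.25, -0.08 to 0.58), and Hspa1a at 17.3, 12.6, 17.4, 12.3 and 13.3 CPM against 16.2 to 18.1 CPM (-0.23, -0.67 to 0.22). Explants and irises overlapped for each of these. In explants 1, 2, 4, 5 and 6, Hspa1b was at 2.22, 1.79, 3.88, 2.53 and 3.57 CPM (0.09, -0.72 to 0.91), Hspb1 at 24.6, 26, 23.8, 29.2 and 32 CPM (-0.05, -0.49 to 0.40) and Dnaja1 at 137.4, 157, 155, 157 and 162 CPM (0.13, -0.09 to 0.36). Hspa4l was at 74.8, 64.6, 68.5, 75.2 and 57.6 CPM (-0.15, -0.47 to 0.18), Dnajb4 at 66.7, 75.2, 85.6, 72.0 and 71.6 CPM (0.14, -0.10 to 0.39) and Hsp90aa1 at 124, 121.7, 135, 129 and 124.5 CPM (-0.11, -0.36 to 0.14). These 6 overlapped with the irises too. Hsf1 was at 51.2, 54.9, 51.7, 56.4 and 51.7 CPM against 51, 39.5 and 49.8 CPM (0.18, -0.08 to 0.45, edgeR, adjusted p = 0.503), every explant above every iris. Explant 1 and iris 1 were nearly level, and on the TPM scale explants and irises overlapped for Hsf1. Of the co-chaperones 1 of 22 was higher, Bag3, an HSP70 exchange factor (0.56 ± 0.16, edgeR, adjusted p = 0.0366), a call lost without explant 2, 4, 5 or 6 or any iris (adjusted p 0.0523 to 0.164). The lens crystallins Cryaa and Cryab were lower (-2.87 ± 0.67 and -0.41 ± 0.09, edgeR, adjusted p = 0.0123 and 0.00831, with 0.0951 for Cryaa without iris 2), as were 4 of 4 tested lens markers, whose sum was 131 to 474 TPM in irises and 8.03 to 95.4 TPM in explants. The part of this lens difference in the members' values was not tested.

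The study corrected explants for iris by subtracting the iris share of each TPM value and dividing by the remainder. The iris shares solved from the deposited tables were 82, 68, 81, 72 and 59% in explants 1, 2, 4, 5 and 6, and the formula of the methods was applied to all 5, with negative results set to 0 for the tests (limma on log2(TPM + 1), 20702 genes, all 68 members). Where most of an explant's TPM was subtracted, the corrected value is a small difference between larger numbers. For Cirbp, 83.7 to 110.5% of the explant TPM was subtracted and the corrected values were 168, -38.1, 104, -24.2 and -20.7 TPM. For Rbm3, 75.8 to 105.6% was subtracted and 69.1, 31.4, 19, -20.1 and 67.2 TPM remained. Livers were at 40.8 to 47.1 TPM for Cirbp and 52.3 to 62.9 TPM for Rbm3, so corrected explants lay on both sides of them. The log2 differences were -2.69 (95% interval -5.94 to 0.56, limma, adjusted p = 0.248) and -1.52 (-3.64 to 0.60, adjusted p = 0.312). Before correction both genes were higher in explants than in livers, by 1.61 for Cirbp and 1.03 for Rbm3 (limma, adjusted p = 0.00021 and 9.85e-06), and with iris 2 alone in place of the mean of the irises the Cirbp difference was 0.03.

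Against livers, 8 corrected members were higher and 4 lower, where 26.7% of all genes were called, 19.9% higher and 6.85% lower. The median was 0.08 for members and 0.57 for all genes, and this shift has not been taken off the differences below. Hsf1, the regulator, was at 132, 110, 129, 137 and 78.3 TPM after correction and 31.8, 29.7 and 36.6 TPM in livers (1.79 ± 0.26, limma, adjusted p = 0.000478). Dnajc10 was at 114, 67.4, 169, 103 and 98.2 TPM against 24.5 to 37 TPM (1.87 ± 0.29, limma, adjusted p = 0.000809). In both genes every explant was above every liver, and both calls held with each of the 3 irises alone and with the deposited values. Both were also higher before correction, but that setting cannot tell graft from iris. Iris itself was above liver, with means of 84.9 against 32.7 TPM for Hsf1 and 106 against 28.8 TPM for Dnajc10. Dnajc27 was at 37.8, 9.19, 11.5, 9.80 and 3.97 TPM against 1.26 to 1.48 TPM (2.37 ± 0.56, limma, adjusted p = 0.00865), with 77.7 to 91.5% subtracted, and with iris 3 alone its difference was -0.19. Dnajc2, a ribosome-bound J protein, was at 51.2, 15.8, 36.3, 29.7 and 21.3 TPM against 7.62 to 10.9 TPM (1.54 ± 0.36, limma, adjusted p = 0.00784).

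Dnajb1 was at 177, 123, 204, 232 and 114 TPM against 85.6 to 97.0 TPM (0.85 ± 0.25, limma, adjusted p = 0.0258), a call lost without liver 1 (adjusted p = 0.0831), liver 2 (0.0845) or liver 3 (0.0661). Hspa13, Dnajc8 and Dnajc14 were higher by 1.22, 0.96 and 0.90, and each lost its call without at least 1 liver: Hspa13 without liver 2 (adjusted p = 0.101) or 3 (0.0526), Dnajc8 without liver 3 (0.0652) and Dnajc14 without liver 1 (0.0539), 2 (0.053) or 3 (0.0541). Dnajc8 turned to -0.48 with the deposited values.

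The other 8 heat-inducible members were not called against livers. Dnajb4, at 27.8, 32.1, 67.6, 32.2 and 23.6 TPM after correction and 17.3, 18.7 and 17 TPM in livers, was the nearest to the threshold (0.91 ± 0.32, limma, adjusted p = 0.0519), with every explant above every liver, and was called without explant 1 (0.0383), 4 (0.0195) or 6 (0.0217). Hsph1 was at 21.8, 60.6, 138, 105.3 and 43.4 TPM against 25.3, 31.9 and 35.4 TPM (0.98 ± 0.49, limma, adjusted p = 0.156, and 0.0224 without explant 1). Hspa1a was at 23.3, 0.526, 22.8, -1.55 and 4.69 TPM against 0.704, 2.37 and 1.56 TPM, and Hspa1b at 0.565, -0.441, 11.9, 2.64 and 5.05 TPM against 1.99, 6.53 and 4.47 TPM. Both copies spread on either side of the livers. Dnaja1 was at 54.3, 68.2, 90.5, 78.2 and 61.6 TPM against 63.8, 72.4 and 75.0 TPM, and Hspb1 at 33.4, 58.2, 18.9, 104.5 and 99.9 TPM against 47.3, 53.9 and 55.6 TPM. Hsp90aa1 was at 64.1, 59.9, 116.5, 89.8 and 64.4 TPM against 61.7, 91.7 and 66.8 TPM, and Hspa4l at 23, 8.75, 11.3, 20.8 and 4.53 TPM against 9.57, 11.1 and 9.17 TPM. For these 4 the explants overlapped with the livers as well.

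The 4 lower of the 68 members, against 6.85% of all genes, were Hspd1, Hspa9, Hsp90ab1 and Hspa8. The deposited values gave 3 members higher and 1 lower, in place of 8 and 4. At most 1 of these 4 lower calls therefore held with them, and at most 3 of the 8 higher ones. Hspd1 was at 199, 180, 154, 199 and 197 TPM in corrected explants and 359, 349 and 351 TPM in livers (-0.93 ± 0.14, limma, adjusted p = 0.000516, 0.294 with the deposited values). Hspa9 was at 256, 297, 361, 263 and 250.5 TPM against 564, 434 and 491 TPM (-0.80 ± 0.16, limma, adjusted p = 0.00333). Hsp90ab1 was at 445, 634, 404, 350.3 and 525.9 TPM against 797 to 812 TPM (-0.80 ± 0.18, limma, adjusted p = 0.00581). Hspa8, the constitutive HSP70, was at 35.1, 80.4, 68.4, 67.3 and 95.5 TPM against 134 to 137 TPM (-1.02 ± 0.27, limma, adjusted p = 0.0151), and lost its call without liver 2 (0.0549) or liver 3 (0.0551). For all 4 every explant was below every liver. Dnajc22, with only 1.41 to 8.60% subtracted, was at 135, 223, 202, 258 and 280 TPM against 302 to 325 TPM and was not called (-0.56 ± 0.21, limma, adjusted p = 0.068). Hspe1 was at 41.7, 126, -78.2, 142 and 196 TPM, from 52.6 to 113.8% subtracted, and was not called (limma, adjusted p = 0.174).

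**Figure D5:**
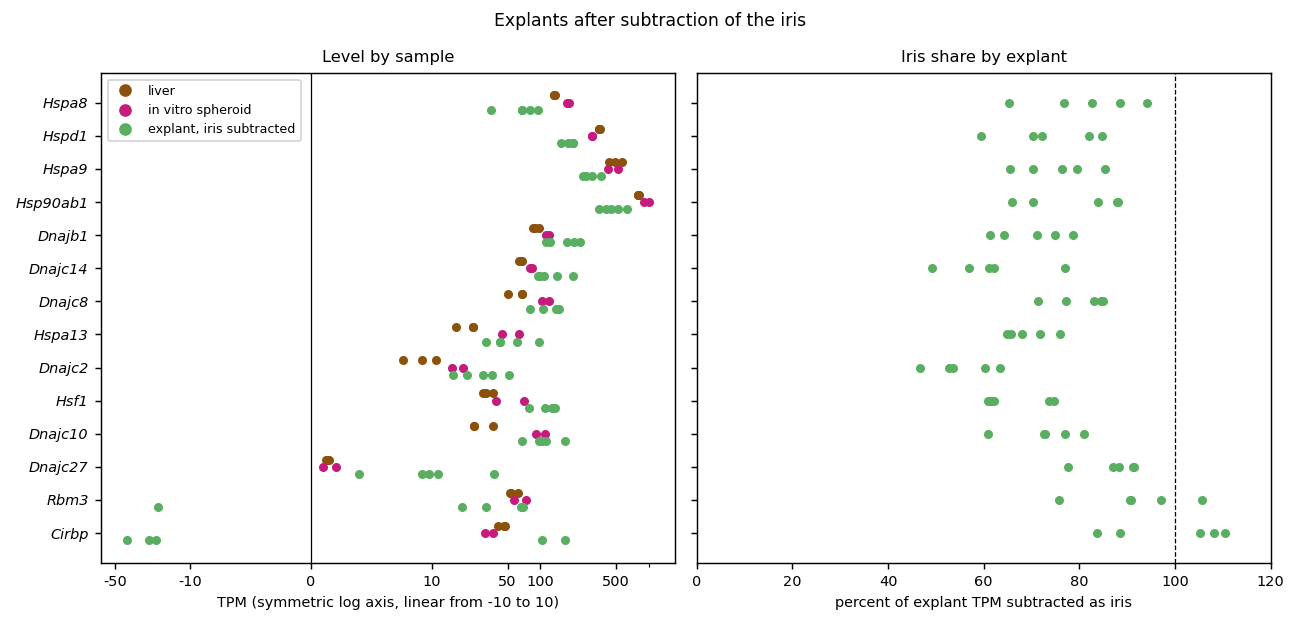
Left, TPM (symmetric log axis, linear near 0) of 14 members in livers, in vitro spheroids and iris-subtracted explants, 1 point a sample. Right, the percent of each explant's TPM that was subtracted, with a dashed line at 100. Hsf1 and Dnajc10 lie above the livers and Hspd1, Hspa9, Hsp90ab1 and Hspa8 below them, while Cirbp and Rbm3 have explants below 0.

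Against the 2 in vitro spheroid samples, 2 corrected members were higher and 5 lower, where 15.5% of all genes were called, 11.5% higher and 3.96% lower, with medians of -0.06 for members and 0.46 for all genes. Hsf1 was 1.10 ± 0.29 higher (71.2 and 39.5 TPM in spheroids, limma, adjusted p = 0.0246) and Dnajc27 2.28 ± 0.64 (2.10 and 1.03 TPM, adjusted p = 0.0318, and -0.28 with iris 3 alone). The lower ones were Hspa8 at -1.43 ± 0.31 (177 and 182 TPM, adjusted p = 0.00792), Hsp90ab1 at -1.04 ± 0.20 (1004 and 896 TPM, 0.00405), the J protein Dnaja2 at -1.01 ± 0.21 (283 and 342 TPM in spheroids and 122 to 195 TPM in explants, 0.00595), Hspa9 at -0.73 ± 0.18 (518 and 425 TPM, 0.0182) and Hspd1 at -0.70 ± 0.16 (302 and 299 TPM, 0.00948). Each of the 7 calls was lost without spheroid 1 or spheroid 2: without spheroid 1 for Dnajc27 (0.109), Hspa8 (0.0651), Hsp90ab1 (0.0591), Hspa9 (0.191) and Hspd1 (0.0721), and without spheroid 2 for Hsf1 (0.353), Dnajc27 (0.279), Hspa8 (0.0874), Dnaja2 (0.105), Hspa9 (0.06) and Hspd1 (0.0797). None of the 9 heat-inducible members was called by limma, and 2 had an unadjusted p under 0.05. Hspa4l, at 31.8 and 26.3 TPM in spheroids (-1.22, 95% interval -2.26 to -0.19, limma, adjusted p = 0.141), and Hsp90aa1, at 136 and 132 TPM (-0.80, -1.37 to -0.24, adjusted p = 0.0809), were lower in every explant than in both spheroids. The other 7 overlapped, with Dnajb1 at 122 and 114 TPM, Hsph1 at 63.7 and 61.5, Dnajb4 at 31 and 41.4, Dnaja1 at 71.4 and 83.8, Hspb1 at 178 and 65.6, Hspa1a at 1.28 and 0.542 and Hspa1b at 2.71 and 0.861 TPM in spheroids. Rbm3, at 57.0 and 74.3 TPM, and Cirbp, at 31.2 and 36.5 TPM, were not called either (-1.73, 95% interval -4.17 to 0.70, and -2.30, -6.02 to 1.43). TRiC subunits were lower for 7 of 8 (median -0.88). After correction iris markers were still higher than in livers for 4 of 4 genes tested and macrophage markers for 5 of 5, beside 3 higher and 1 lower of 7 hepatocyte markers. Against livers, immediate early genes were higher for 5 of 8, with 0 lower. Cholangiocyte markers were higher for 3 of 4 and smooth muscle markers for 2 of 5, with 0 lower. Sinusoidal endothelial markers were lower for 3 of 4, stellate cell markers for 2 of 4 and Kupffer cell markers for 2 of 5. In these lists 0 were higher. The part of all these genes in the corrected levels was not tested.

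Across the 16 samples and 10932 genes with a mean of at least 10 TPM, the genes most like Rbm3 by Pearson's r of log2(TPM + 1) were Kcnj8 (0.989), Psap (0.981) and Ccdc68 (0.979), and those most like Cirbp were Nexn (0.981), Rgmb (0.978) and Phf21a (0.976). Rbm3 and Cirbp had an r of 0.919 with each other. These values are descriptions, since the samples share groups and the irises and explants stand apart from the liver samples.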

How the data were processed

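Bulk Smart-seq3 RNA-seq of 16 samples, each with 3 technical libraries (48 in all), was analysed. The submitters' processing notes name TopHat2, SAMtools and mm10, the study's software list adds UMI-tool dedup, and, per the file headers, the authors counted deduplicated reads over exons per gene with featureCounts 1.4.6-p5, without strand and with every overlapping gene credited. The deposited counts are whole numbers per gene, and the deposited TPM are counts scaled by length and depth. The deposited corrected values, a score, are TPM from which the authors subtracted an iris share before the files were deposited. In these deposited values the column of explant 4 follows another formula than the other 4. Corrected TPM below 0 given here come from applying the formula of the methods, before negative results were set to 0. Of the 68 members, 6 share over 10% of their exon bases with another gene (Dnaja4, Dnajc14, Dnajc30, Hspa1a, Hsp90b1, Dnaja1).

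Technical libraries were summed. For counts, 1 quasi-likelihood model of the 5 groups was fitted in edgeR 4.0.16 after its default filter and TMM scaling, with DESeq2 1.42.0 and limma-voom as alternatives, and corrected TPM with limma 3.58.1 (trend) on log2(TPM + 1), in R 4.3.3 and Python 3.11.15. Tests were tried on simulated data. The members and the gene lists were chosen with earlier results of these data known. Values in every sample are given for heat-inducible, cold-inducible and regulator genes and for the 4 highest and 4 lowest calls of each comparison without overlap between groups, and for further members described in the text after their values were seen. The share of all genes whose groups do not overlap is not given here. Intervals on counts cover counting error only. Alternatives were other scalings, filters, tests and iris terms, library a alone, the 2 groups compared alone, a replicate block and leaving out each sample.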

Additional observations from a re-analysis of the deposited data

Results flagged for a closer look

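In groups of 4 to 10 samples, which here are the explants alone, the 63 tested members were searched for 1 sample far from the other 4, and 2 were found, where chance alone marks about 1 in 20. Dnajc8, a J protein of the spliceosome, was at 113 CPM in explant 2 and between 121 and 124 CPM in the other explants. Hspa13 was at 85.9 CPM in explant 4 and between 70.0 and 73.5 CPM in the others. Neither gene was called between explants and irises.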

How the results depend on the processing

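The number of members called moved by more than 1.5 times under some alternatives, for which the cause was not tested unless the setting itself asks for fewer samples or larger changes. With an absolute log2 change over 1 also required, counts were 1 for preparations against livers (from 4), 6 for spheroids against preparations (from 23), 8 for spheroids against livers (from 21), 27 for irises against livers (from 49) and 6 for corrected explants against livers (from 12). For preparations against livers there were 2 without a filter, 2 with at least 10 counts in every sample and 2 with only those groups fitted. Fits of only the groups compared gave 13 for spheroids against preparations, 11 for spheroids against livers, 6 for explants against irises and 1 for corrected explants against spheroids. Libraries a alone gave 10 for spheroids against preparations and 2 for explants against irises, where DESeq2 and limma-voom gave 4 each, and RLE factors, library size alone and at least 10 counts 2 each, from 1. The corrected comparison with livers gave 4 with the deposited values, 50 before correction and 19 with iris 1 alone, and that with spheroids (from 7) 1, 39 and 13, and 13 with iris 2 alone. The single irises were added after seeing the data. Leaving out 1 sample gave 2 to 5 for preparations against livers, 15 to 19 for spheroids against preparations, 14 to 22 for spheroids against livers, 1 to 2 for explants against irises, 45 to 49 for irises against livers, 7 to 18 for corrected explants against livers and 1 to 11 against spheroids.

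Directions turned for Hspb8 (0.0269) and Hspa4 (0.0182), irises against livers, with library size alone, for Dnajc27 with iris 3 alone (-0.19 against livers, -0.28 against spheroids) and for Dnajc8 with the deposited values (-0.48). Deviations of same-numbered samples of different groups had correlations of -0.128 to 0.125. With so few samples a group, whose deviations sum to 0, these cannot exclude pairing. The labels do not tie samples to animals, and the numbers were not taken to pair samples. With a replicate block the counts were 1 for preparations against livers (Dnajb1 lost its call there, 0.68, edgeR, adjusted p = 0.0722), 8 for spheroids against preparations, 7 for spheroids against livers and 0 for both corrected comparisons (limma, with 6 members against livers and 7 against spheroids at an unadjusted p under 0.05).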
